A study of Mus musculus with 12 samples.

Results

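The 44 genes described here encode the extracellular matrix and basement membrane of the kidney, together with enzymes and inhibitors that remodel them. They were chosen by gene symbol from a list of names, with earlier results of these data known. All 44 symbols were found among the 57490 genes of the deposited table. They form 4 classes, with 8 genes of fibrillar collagens and collagen VI, 17 basement membrane genes, 11 genes of proteoglycans, elastic fibre and matricellular proteins, and 8 genes of remodelling enzymes and inhibitors. All 44 passed the filter on low counts, which left 17431 genes to be tested.

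The study compared kidneys of non-diabetic and diabetic mice, and asked what Yiqi Huoxue Yangyin Decoction (YHY) changes in the diabetic kidney. The Model and YHY groups were male mice of the strain given as BKS. Cg-Dock7m +/+ Leprdb/JNju (db/db), a leptin receptor mutant, and the Ctrl group was age-matched male BKS heterozygotes, written db/+ or db/m, which the sample labels also call wild-type. Each group had 4 mice, bought at 8 weeks, taken into the study by random blood glucose and sampled at 13 weeks. YHY water extract (6.24 g/mL) was given by gavage once daily for 4 weeks, the dose group of the sequenced mice is not stated, and both other groups received purified water. Poly(A) RNA was sequenced from kidney, called whole tissue in the sample labels and renal cortex in the design of the series, with 1 library for each mouse. As the db/m controls are heterozygous, no mouse free of the Lepr mutation was compared.

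Basement membranes are sheets of laminin and collagen IV networks joined by nidogens and by the heparan sulfate proteoglycans perlecan and agrin. In the mature glomerulus, the membrane between podocytes and endothelium is built mainly of collagen IV with alpha-3, alpha-4 and alpha-5 chains and of laminin with alpha-5, beta-2 and gamma-1 chains, whereas the mesangium and most other basement membranes hold collagen IV with alpha-1 and alpha-2 chains. Fibrillar collagens, collagen VI, elastic fibres and small proteoglycans fill the interstitium, and expansion of the mesangial matrix with a thicker glomerular basement membrane is a known feature of diabetic kidney disease.

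The libraries differed in ways that bear on every level given here. Total counts ran from 24415658 to 33276634 per mouse, and transcripts of the mitochondrial genome took 19.5% ± 2.12 (SD, n = 4) of the counts in the Ctrl group, 52.2% ± 7.68 (SD, n = 4) in the Model group and 56.8% ± 5.21 (SD, n = 4) in the YHY group. Levels are therefore given as CPM, counts relative to a library total scaled by edgeR's trimmed mean of M values (TMM), with factors from 0.720 to 1.35. The choice of scaling sets the balance of higher and lower genes. In Model against Ctrl, 51.5% of all calls were higher with TMM and 21.4% with library size alone, which moved the median of all genes by -0.43 on the log2 scale. Upper-quartile scaling moved that median by 0.10. In YHY against Ctrl, 51.9% of calls were higher with TMM and 28.4% with library size alone (a shift of the median by -0.43), and upper-quartile scaling moved the median by 0.12. The shift in YHY against Model was 0.00 with library size alone.

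One YHY mouse stood apart across the members. YHY 4 had the lowest level of its group for 38 of the 44 members, 8 of 8 fibrillar collagen and collagen VI genes, 14 of 17 basement membrane genes, 9 of 11 genes of proteoglycans, elastic fibre and matricellular proteins, and 7 of 8 remodelling genes. How often YHY 4 was lowest over all genes is not given here. YHY 2 was highest of its group for 22 members and YHY 1 for 19. In the Model group, Model 2 was highest for 25 members and Model 4 lowest for 23. The extremes were spread more evenly in the Ctrl group, where no mouse was lowest for more than 16 members or highest for more than 16. The summed level of the members was 2117, 2148, 2018 and 2026 CPM in Ctrl 1 to 4, 1987, 2727, 2608 and 1936 CPM in Model 1 to 4 and 3578, 3800.2, 2615 and 2046 CPM in YHY 1 to 4. As a share of all counts, without TMM, the members took 0.265%, 0.232%, 0.248% and 0.272% in Ctrl 1 to 4. They took 0.207%, 0.217%, 0.219% and 0.186% in Model 1 to 4 and 0.370%, 0.273%, 0.268% and 0.178% in YHY 1 to 4. By this share every Model mouse was below every Ctrl mouse. Mitochondrial transcripts are part of that total and took 18.4% to 22.7% of it in Ctrl mice and 41.2% to 58.9% in Model mice. The share of the members in the other counts is not given here. The heat map shows the TMM-scaled levels mouse by mouse. Warm colours lie across most members in YHY 1, 2 and 3 and cooler ones in YHY 4.

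**Figure D1:**
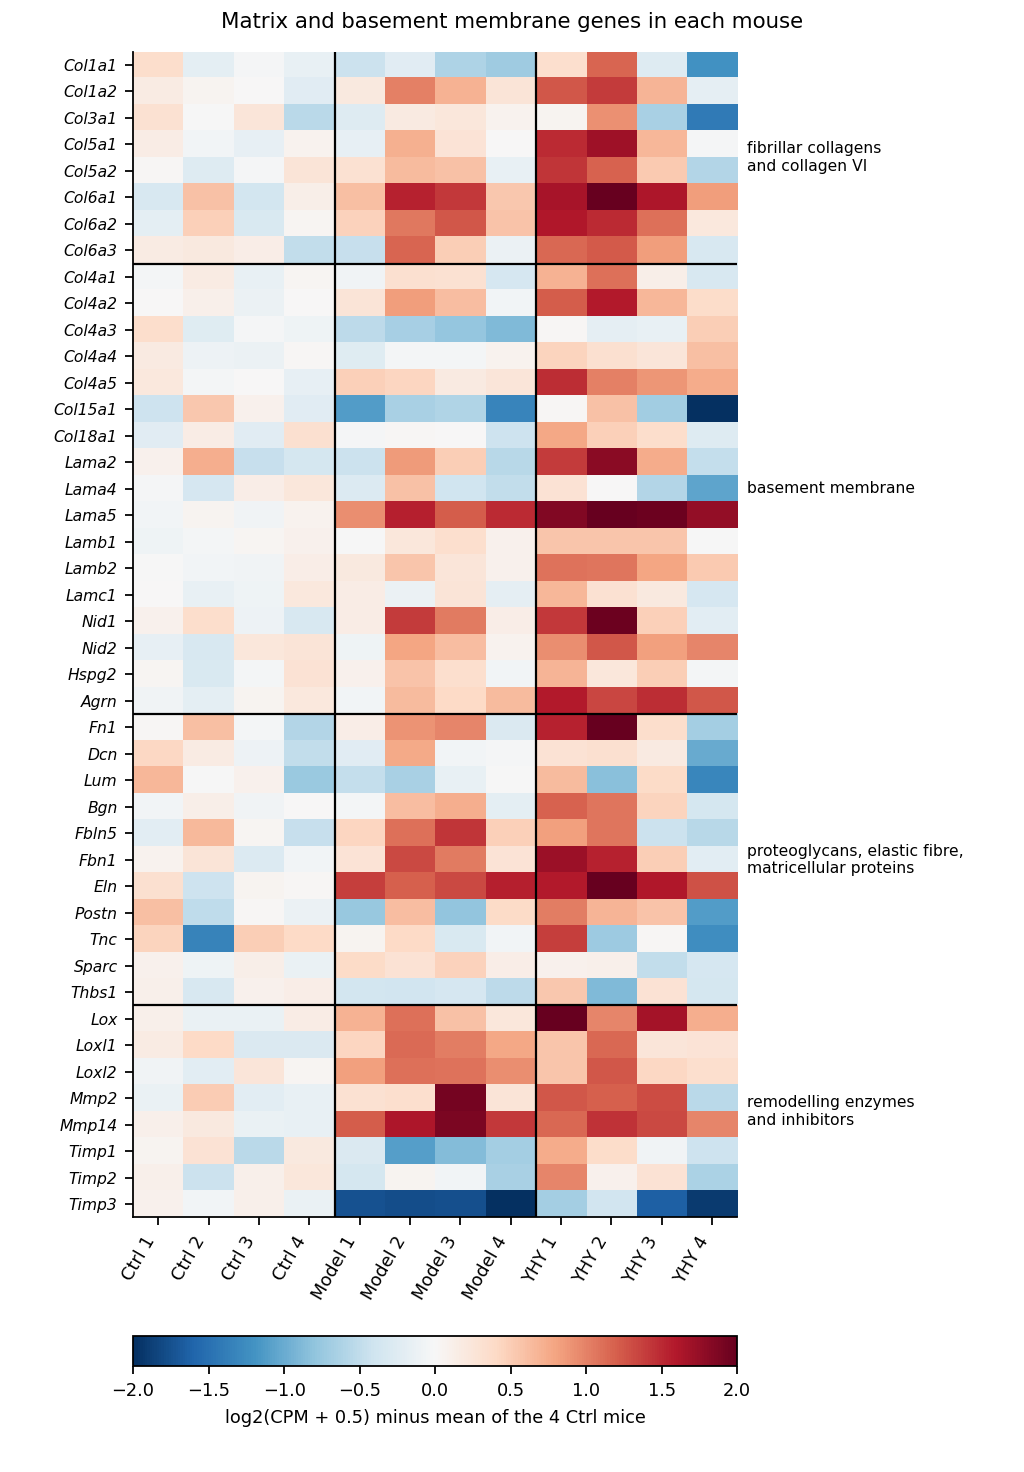
Level of the 44 members in each of the 12 mice as log2(CPM + 0.5) minus the mean of the 4 Ctrl mice, with TMM-scaled CPM, genes grouped by class and colours limited to 2 in either direction. Lama5, Eln and Mmp14 are above the Ctrl mean in all 8 db/db mice and Timp3 is below it. With library size alone in place of TMM, the median member difference in Model against Ctrl turns from 0.30 to -0.15. The median over all genes then turns from 0.04 to -0.39.

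A gene was called when the Benjamini-Hochberg adjusted P of edgeR's quasi-likelihood test, over all genes tested, was under 0.05. Differences are log2 fold changes with their standard errors (±). In Model against Ctrl, 8 of the 44 members (18.2%) were higher, where 19.6% of all genes were, and 2 (4.55%) were lower, where 18.5% of all genes were. The share of members called higher lay near that of all genes. In YHY against Model, 7 members (15.9%) were higher against 5.63% of all genes. No member was lower in YHY than Model by edgeR (0 of 44, against 7.62% of all genes), while 1 member, Sparc, was lower at an unadjusted P under 0.05 and 1, again Sparc, by DESeq2. Against Ctrl, 22 members (50%) were higher in YHY, against 26.1% of all genes, and 1 (2.27%) was lower against 24.2%. With library size alone, 4 members were higher and 7 lower in Model than Ctrl (8.87% and 32.5% of all genes), 3 higher and 0 lower in YHY than Model (2.82% and 3.94%), and 10 higher and 2 lower in YHY than Ctrl (13.6% and 34.3%). The 7 were Col1a1, Col4a3, Col4a4, Col15a1, Thbs1, Timp1 and Timp3, and the 2 were Sparc and Timp3. At the limits the study used, a fold over 1.2 and an unadjusted P under 0.05, 12 members were higher and 4 lower in Model than Ctrl, where 24.5% and 22.4% of all genes were. By those limits 14 were higher and 1 lower in YHY than Model (13.9% and 14.7% of all genes), and 25 were higher and 1 lower in YHY than Ctrl (29.4% and 26.6%).

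The median difference of the members was 0.30 in Model against Ctrl beside 0.04 over all genes, 0.43 in YHY against Model beside 0.02, and 0.64 in YHY against Ctrl beside 0.10. With library size alone, the members' median in Model against Ctrl turned to -0.15, beside -0.39 over all genes. By the same scaling that in YHY against Ctrl fell to 0.19, beside -0.33, with 26 of 44 members above 0 in place of 36. With 1 mouse left out, the median in Model against Ctrl was lowest without Model 2 (0.16) and that in YHY against Model lowest without YHY 1 (0.26). The comparisons share mice, since Model mice enter both of the first comparisons and Ctrl mice enter the first and the third. Leaving out 1 mouse changed the number of members called higher in YHY than Model to 3 without Model 3, to 4 without Model 4 and to 14 without YHY 4, where 2.32%, 3.33% and 5.89% of all genes were. Without YHY 2, 2 members, Loxl2 and Sparc, were lower in YHY than Model (5.91% of all genes). Without Ctrl 3, 14 members were higher in YHY than Ctrl (20.9% of all genes). With mitochondrial transcripts left out, no member call was lost, the counts were 8 higher and 2 lower, 8 and 0, and 23 and 1, and the medians 0.29, 0.46 and 0.66 in the order of the comparisons above. Of all genes, 19.9% were then higher and 19.3% lower, 6.39% and 7.45%, and 27.2% and 24.5%, in that order. Where levels of 2 groups are said below to overlap or not to overlap, this holds with TMM. The share of all genes without overlap was not counted, so a lack of overlap is not read as particular to the members. With library size alone, levels that did not overlap with TMM overlapped for 5 of 14 members in Model against Ctrl (Col1a2, Fbn1, Sparc, Lox and Loxl1). They also overlapped for 3 of 7 in YHY against Model (Col4a3, Col4a4 and Sparc), and for 6 of 13 in YHY against Ctrl (Col4a2, Col4a4, Col6a1, Lamb2, Lox and Loxl2). Some levels overlapped with TMM but not with library size alone. By that scaling Col4a1, Col4a4 and Col18a1 were lower in every Model mouse than in every Ctrl mouse. Against all Model mice, all YHY mice were then higher for Lamb2 and lower for Loxl2. In all, 24 members were called in at least 1 comparison and 20 in none.

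**Figure D2:**
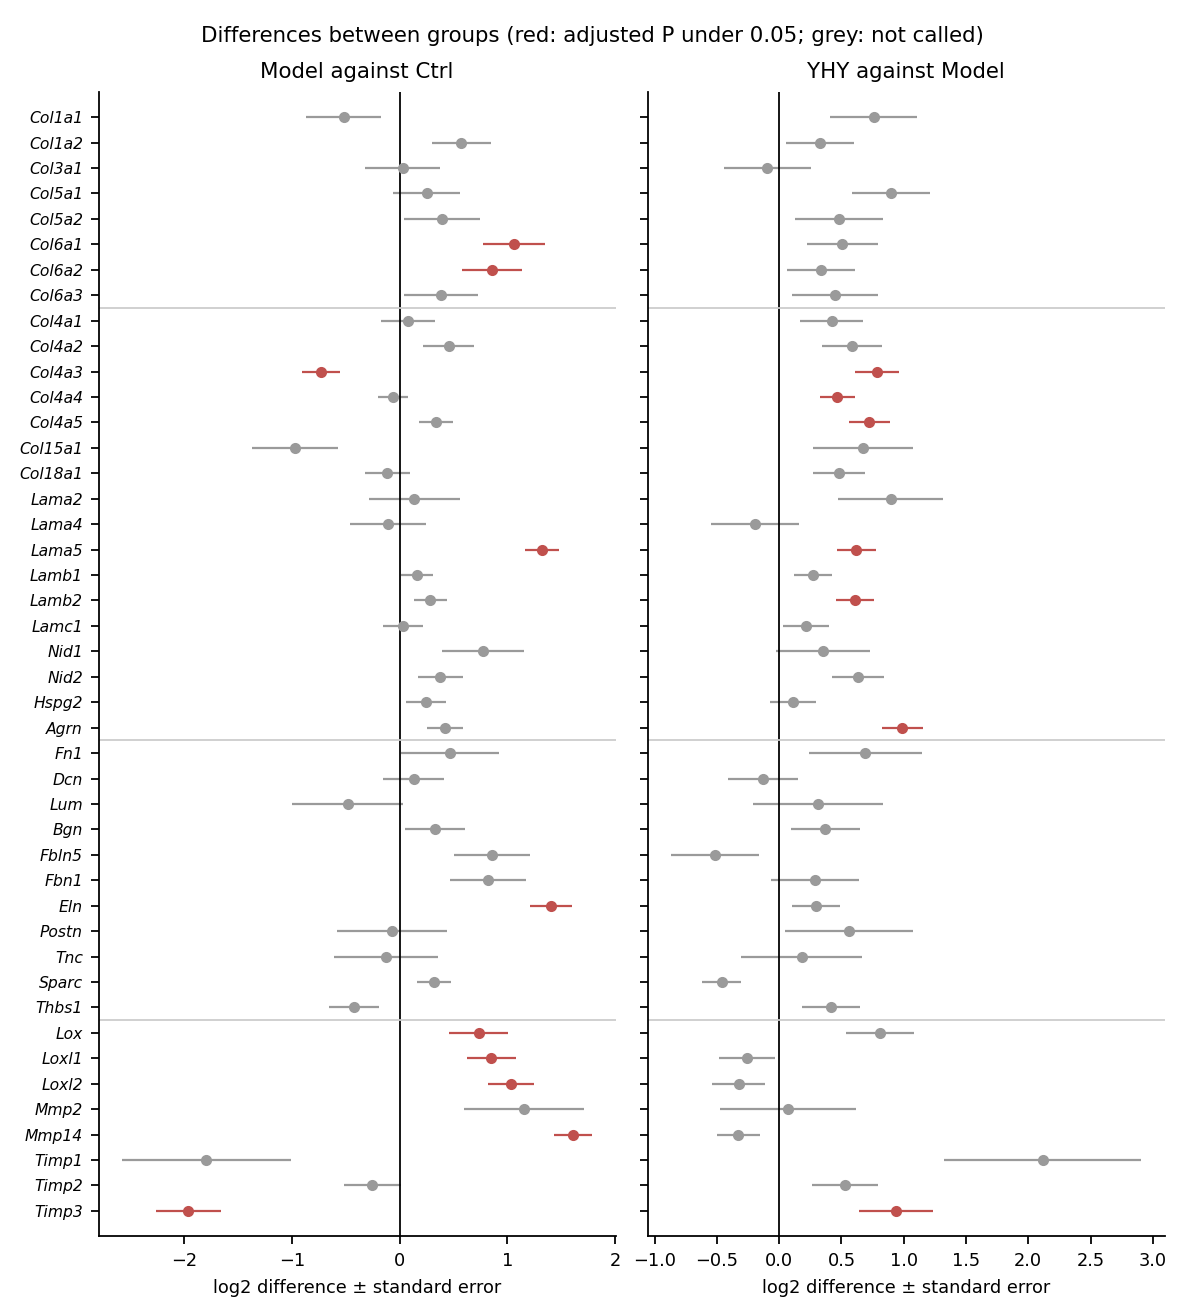
Log2 difference ± standard error of each of the 44 members in Model against Ctrl (left) and YHY against Model (right), 4 mice a group, TMM scaling, with called members in red. The median member lies at 0.30 on the left and at 0.43 on the right. With library size alone the left median turns to -0.15, beside -0.39 over all genes.

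Col4a3, Col4a4 and Col4a5 encode the chains of the glomerular collagen IV network. Col4a3, the alpha-3 chain, was at 128, 84.6, 98.3 and 94.8 CPM in Ctrl 1 to 4, 69.2, 62.9, 58.2 and 53.9 CPM in Model 1 to 4 and 102, 88.5, 90.6 and 141 CPM in YHY 1 to 4. All Model mice lay below all Ctrl mice and all YHY mice lay above all Model mice, while Ctrl and YHY overlapped and YHY 4 was the highest of the 12. Col4a3 fell in Model against Ctrl (-0.73 ± 0.18, adjusted P = 0.00407) and was higher in YHY than in Model (0.79 ± 0.18, adjusted P = 0.00980). Against Ctrl, the YHY mice differed by 0.06 ± 0.17, adjusted P = 0.807. The exact two-sided permutation test of CPM gave P = 0.0286 in both comparisons, the smallest that 4 against 4 mice can give. Both Col4a3 calls were kept under each of the 21 alternatives in scaling, count model, filter and mice.

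Col4a4 encodes the alpha-4 chain. Its level was 135, 111, 110.0 and 120.4 CPM in Ctrl 1 to 4, 100.4, 115, 116 and 124 CPM in Model 1 to 4 and 162, 149, 141 and 179.7 CPM in YHY 1 to 4. Model overlapped Ctrl, with Model 1 the lowest mouse, and all YHY mice lay above every mouse of both other groups. Col4a4 was higher in YHY than in Model (0.47 ± 0.14, adjusted P = 0.0361), a call lost under 13 of 21 alternatives, where adjusted P reached 0.14, among them without any 1 of the 4 Model mice. It was also higher in YHY than in Ctrl (0.40 ± 0.14, adjusted P = 0.0232), a call lost under 7 of 21 alternatives, which were library size alone, no filter, a set of 9 mice (Ctrl 1, 3 and 4, Model 2, 3 and 4, YHY 1, 2 and 3) and leaving out Ctrl 2, Ctrl 3, Ctrl 4 or YHY 4. With library size alone its sign turned (-0.03, adjusted P = 0.916). Model against Ctrl gave -0.06 ± 0.14, adjusted P = 0.747. Col4a5, the X-linked gene of the alpha-5 chain, was at 28.9, 24.3, 25.00 and 22.2 CPM in Ctrl 1 to 4, 34.8, 34.01, 28.3 and 29.8 CPM in Model 1 to 4 and 70.3, 50.6, 46.5 and 42.2 CPM in YHY 1 to 4. Model and Ctrl overlapped by single mice, and every YHY mouse was above every other mouse. Its difference was 0.72 ± 0.16, adjusted P = 0.00993, in YHY against Model, and 1.06 ± 0.16, adjusted P = 6.69e-05, in YHY against Ctrl, with 0.34 ± 0.16, adjusted P = 0.113, in Model against Ctrl. The call in YHY against Model was lost with library size alone, where adjusted P was 0.0533.

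Col4a1 and Col4a2 encode the chains of the collagen IV network found in nearly all basement membranes. By mean FPKM, a level per length, Col4a1 was the most abundant member of its class at 28.0 FPKM, followed by Col4a2 at 22.1 FPKM. Col4a1 was at 175, 202, 162 and 185 CPM in Ctrl 1 to 4, 171, 227, 223 and 143 CPM in Model 1 to 4 and 293, 388, 196 and 144 CPM in YHY 1 to 4. The 3 groups overlapped, with YHY 1 and YHY 2 above all other mice, and no comparison called it (0.07 ± 0.25, adjusted P = 0.842, in Model against Ctrl, and 0.42 ± 0.25, adjusted P = 0.288, in YHY against Model). Col4a2 was at 99.4, 106, 91.3 and 99.5 CPM in Ctrl 1 to 4, 118, 176, 153 and 95.6 CPM in Model 1 to 4 and 229.7, 298, 158 and 128 CPM in YHY 1 to 4. Every YHY mouse was above every Ctrl mouse, and Model overlapped both groups. Col4a2 was called higher in YHY than in Ctrl (1.04 ± 0.24, adjusted P = 0.0020), and not in Model against Ctrl (0.45 ± 0.24, adjusted P = 0.147) or YHY against Model (0.58 ± 0.24, adjusted P = 0.119).

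The collagen IV genes lie in head-to-head pairs, and their start regions are printed because the ratio of Col4a1 to Col4a2, and that of Col4a3 to Col4a4, did not overlap between Ctrl and Model mice. In the coordinates of the deposited table (GRCm39), Col4a1 and Col4a2 on chromosome 8 are transcribed away from each other and overlap by 22 bases, Col4a3 and Col4a4 on chromosome 1 lie 71 bases apart, and Col4a5 and Col4a6 on the X chromosome 1308 bases apart. Of the 44 members, 29 had a promoter window from RefSeq (GRCm38.p6), reaching from 250 bases before the start to 50 bases after it. Col4a3 had none. The windows of Col4a1 (chr8:11312777-11313076, minus strand) and Col4a2 (chr8:11312555-11312854, plus strand) share 78 bases, and that of Col4a4 is chr1:82586800-82587099, minus strand. Capitals mark the letters CCAAT and GGGCGG on either strand, which overlap neither each other nor TATAAA, also searched on both strands and found in none of the 3 windows.
Col4a1: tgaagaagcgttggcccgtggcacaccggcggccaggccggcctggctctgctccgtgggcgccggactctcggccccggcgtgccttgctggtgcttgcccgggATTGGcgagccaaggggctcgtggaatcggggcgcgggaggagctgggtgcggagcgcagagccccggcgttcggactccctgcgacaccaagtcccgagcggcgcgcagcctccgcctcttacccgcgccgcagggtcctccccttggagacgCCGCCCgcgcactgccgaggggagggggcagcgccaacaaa
Col4a2: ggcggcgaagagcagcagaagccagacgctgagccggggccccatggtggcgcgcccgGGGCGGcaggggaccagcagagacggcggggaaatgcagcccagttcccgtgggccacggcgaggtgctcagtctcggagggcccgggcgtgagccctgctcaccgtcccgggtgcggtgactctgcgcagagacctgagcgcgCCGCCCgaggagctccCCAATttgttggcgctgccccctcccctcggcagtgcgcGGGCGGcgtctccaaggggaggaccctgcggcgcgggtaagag
Col4a4: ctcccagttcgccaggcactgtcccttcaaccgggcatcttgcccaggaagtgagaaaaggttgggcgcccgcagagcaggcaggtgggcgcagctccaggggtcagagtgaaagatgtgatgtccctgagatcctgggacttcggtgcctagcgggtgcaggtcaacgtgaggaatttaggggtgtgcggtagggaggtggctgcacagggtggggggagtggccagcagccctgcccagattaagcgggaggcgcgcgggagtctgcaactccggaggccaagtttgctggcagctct
The Col4a1 window held 1 CCAAT and 1 GGGCGG, both on the reverse strand, and the Col4a2 window held 1 CCAAT, on the forward strand, and 3 GGGCGG. The GGGCGG of the Col4a1 window and the last of the 3 in the Col4a2 window are the same site, within the 78 shared bases. No capitals stand in the Col4a4 window, so these letters are not in those 300 bases. Over all 32851 promoter windows of the same length, 37.4% held CCAAT, 35.7% GGGCGG and 13.6% TATAAA. The share of G and C was 74% in the Col4a1 window and 63.3% in that of Col4a4.

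Laminins are trimers of an alpha, a beta and a gamma chain, and alpha-5, beta-2 and gamma-1 are those of the mature glomerular membrane. Lama5, the alpha-5 chain, was at 64.3, 68.96, 63.5 and 70.3 CPM in Ctrl 1 to 4, 127, 197, 155 and 188 CPM in Model 1 to 4 and 242, 295, 261 and 227 CPM in YHY 1 to 4. The groups did not overlap, as all Model mice were above all Ctrl mice and all YHY mice above all Model mice. Lama5 rose in Model against Ctrl (1.32 ± 0.16, adjusted P = 2.45e-05, 2.50-fold) and was higher again in YHY than in Model (0.62 ± 0.16, adjusted P = 0.0188). The first of these calls was kept under all 21 alternatives, and the call in YHY against Model was lost without Model 3, where adjusted P was 0.0686.

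Lamb2, the beta-2 chain, was at 37.5, 36.2, 35.8 and 41.5 CPM in Ctrl 1 to 4, 43.04, 55.8, 44.8 and 40.1 CPM in Model 1 to 4 and 80.6, 79.9, 65.5 and 54.3 CPM in YHY 1 to 4. Each neighbouring pair of groups overlapped by a single mouse, since Model 4 was below Ctrl 4 and YHY 4 was below Model 2. Lamb2 was higher in YHY than in Model (0.61 ± 0.15, adjusted P = 0.0172), a call lost with library size alone and without Model 3 or Model 4 (adjusted P up to 0.058), and higher in YHY than in Ctrl (0.89 ± 0.15, adjusted P = 0.000180), lost with library size alone (adjusted P = 0.0574). In Model against Ctrl the difference was 0.28 ± 0.15, adjusted P = 0.158. Lamb1, the beta-1 chain that the developing glomerulus uses before beta-2, was at 90.5, 93.2, 98.9 and 101 CPM in Ctrl 1 to 4, 95.3, 112, 121 and 102 CPM in Model 1 to 4 and 141, 141, 140.5 and 95.5 CPM in YHY 1 to 4. YHY 1, 2 and 3 were above every other mouse and YHY 4 lay among the Ctrl mice. Lamb1 was called higher in YHY than in Ctrl (0.43 ± 0.15, adjusted P = 0.0254), a call lost under 10 of 21 alternatives, among them without YHY 1, 2 or 3 and without any 1 of the Ctrl mice. With library size alone this difference was 0.01 (adjusted P = 0.972).

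The remaining laminin members were called in no comparison. Lamc1, the gamma-1 chain shared by most laminins, had 25.00 to 32.1 CPM in the Ctrl mice, 24.3 to 33.1 CPM in the Model mice and 21.9 to 43.96 CPM in the YHY mice. Lama2, the alpha-2 chain known from muscle and mesangium, had 9.43 to 22.2 CPM in the Ctrl mice, 8.85 to 24.2 CPM in the Model mice and 9.38 to 47.3 CPM in the YHY mice, and YHY 2 was the highest of the 12 mice. Lama4, an alpha-4 chain of vessel walls and the least abundant basement membrane member at 0.312 FPKM, had 3.12 to 4.83 CPM in the Ctrl mice, 2.74 to 6.34 CPM in the Model mice and 1.70 to 5.08 CPM in the YHY mice. For these 3 genes adjusted P in YHY against Model was 0.482, 0.175 and 0.777, in that order.

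**Figure D3:**
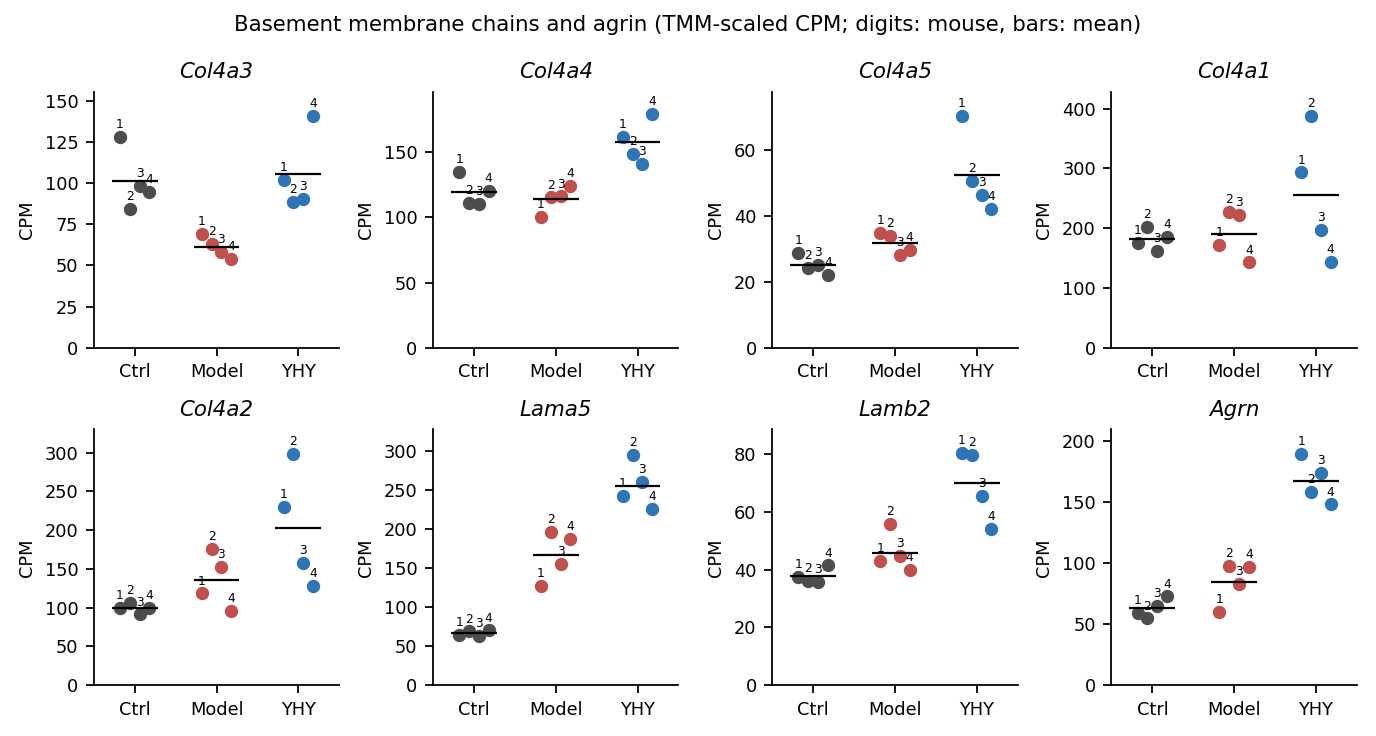
TMM-scaled CPM of 8 basement membrane genes in each mouse, with the number of the mouse above each point and a bar at the mean of 4 mice. Col4a3 is at 69.2 or less in every Model mouse and at 84.6 or more in every Ctrl mouse, and Agrn is at 148 or more in every YHY mouse and at 97.5 or less in every other mouse.

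Agrn encodes agrin, the main heparan sulfate proteoglycan of the glomerular basement membrane. It was at 59.4, 54.7, 65.02 and 72.8 CPM in Ctrl 1 to 4, 60.2, 97.5, 82.8 and 97.1 CPM in Model 1 to 4 and 189, 158, 174 and 148 CPM in YHY 1 to 4. Every YHY mouse was above every Model and Ctrl mouse, and Model 1 lay among the Ctrl mice. Agrn was higher in YHY than in Model (0.99 ± 0.17, adjusted P = 0.00213, 1.99-fold), kept under all 21 alternatives, and higher in YHY than in Ctrl (1.41 ± 0.17, adjusted P = 7.51e-06), while Model against Ctrl gave 0.42 ± 0.17, adjusted P = 0.0574. DESeq2 called Agrn higher there. Hspg2, which encodes perlecan, was called in no comparison and had 45.00 to 68.2 CPM in the Ctrl mice, 53.3 to 82.8 CPM in the Model mice and 54.01 to 88.6 CPM in the YHY mice.

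Nidogens bridge laminin and collagen IV. Nid1 was at 40.4, 48.7, 35.5 and 30.6 CPM in Ctrl 1 to 4, 42.3, 102, 78.7 and 41.9 CPM in Model 1 to 4 and 102, 150.0, 53.3 and 33.1 CPM in YHY 1 to 4. Model 2 and 3 and YHY 1, 2 and 3 were above all Ctrl mice, while YHY 4 lay among the Ctrl mice. Nid1 was called higher in YHY than in Ctrl (1.13 ± 0.38, adjusted P = 0.0219), a call lost under 6 of 21 alternatives, including without YHY 1 or YHY 2 and with library size alone (0.66, adjusted P = 0.102). It was not called in Model against Ctrl (0.77 ± 0.38, adjusted P = 0.121). Nid2 was at 10.6, 9.42, 14.1 and 14.4 CPM in Ctrl 1 to 4, 11.3, 21.01, 18.5 and 12.5 CPM in Model 1 to 4 and 23.2, 29.1, 21.6 and 24.1 CPM in YHY 1 to 4. All YHY mice were above all Model and Ctrl mice, and Nid2 was called higher in YHY than in Ctrl (1.01 ± 0.21, adjusted P = 0.000802), with 0.63 ± 0.21, adjusted P = 0.0556, in YHY against Model. DESeq2 called it higher there. Along 437 bases Nid2 overlaps Rtraf on the opposite strand, whose counts reached 775% of those of Nid2, and whether strand was used in counting is not stated, so the part of Rtraf in the Nid2 counts was not tested.

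Collagens XV and XVIII are found in the outer zone of basement membranes. Col15a1 had 12.8 to 25.3 CPM in the Ctrl mice, 6.58 to 11.1 CPM in the Model mice and 3.84 to 26.1 CPM in the YHY mice, and Col18a1 had 121 to 177 CPM in the Ctrl mice, 107 to 145 CPM in the Model mice and 119 to 245 CPM in the YHY mice. Each Model mouse was below each Ctrl mouse for Col15a1, but the difference was not called by edgeR (-0.98 ± 0.40, adjusted P = 0.0654), while DESeq2 called it lower. Col18a1 was called in no comparison, and Slc19a1, which overlaps 8825 of its bases on the opposite strand, had counts of up to 58.5% of those of Col18a1. As a class, basement membrane members had a median difference of 0.16 in Model against Ctrl, with 1 of 17 called higher and 1 lower (2 and 2 by DESeq2). With library size alone that median turned to -0.29, beside -0.39 over all genes. For YHY against Model the median was 0.58, with 6 of 17 higher and 0 lower by edgeR (9 and 0 at an unadjusted P under 0.05, 7 and 0 by DESeq2). The median in YHY against Ctrl was 0.49, with 9 of 17 higher (0.04 and 5 with library size alone).

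Collagen VI forms beaded microfibrils next to basement membranes and in the interstitium, and its genes gave both calls of the fibrillar class in Model against Ctrl. Col6a1, the alpha-1 chain and the most abundant member of the class at 8.52 FPKM, was at 14.1, 27.02, 13.6 and 19.2 CPM in Ctrl 1 to 4, 27.2, 52.6, 48.4 and 26.1 CPM in Model 1 to 4 and 56.7, 74.5, 55.9 and 32.2 CPM in YHY 1 to 4. Model 1, 2 and 3 were above all Ctrl mice, Model 4 was below Ctrl 2, and every YHY mouse was above every Ctrl mouse. Col6a1 rose in Model against Ctrl (1.06 ± 0.29, adjusted P = 0.00888), a call lost with library size alone (adjusted P = 0.0676), and was higher in YHY than in Ctrl (1.57 ± 0.29, adjusted P = 0.000347). Col6a2 was at 9.92, 16.2, 9.13 and 11.7 CPM in Ctrl 1 to 4, 15.9, 24.3, 27.7 and 17.2 CPM in Model 1 to 4 and 35.8, 33.3, 25.2 and 13.3 CPM in YHY 1 to 4. Model 1 was below Ctrl 2 and YHY 4 lay within the Ctrl range, the only overlaps with Ctrl. Col6a2 rose in Model against Ctrl (0.86 ± 0.28, adjusted P = 0.0228), a call lost under 6 of 21 alternatives, which were library size alone and leaving out Ctrl 1, Ctrl 3, Ctrl 4, Model 2 or Model 3 (adjusted P up to 0.236). By the exact two-sided permutation test, P was 0.0571 for Col6a1 and for Col6a2 in Model against Ctrl. Col6a2 was higher in YHY than in Ctrl (1.195 ± 0.28, adjusted P = 0.00203). Col6a3 had 10.6 to 17.4 CPM in the Ctrl mice, 10.8 to 34.4 CPM in the Model mice and 12.01 to 36.1 CPM in the YHY mice and was called in no comparison by edgeR. DESeq2 called it higher in YHY than Ctrl. None of these 3 genes was called in YHY against Model (adjusted P 0.259, 0.452 and 0.422).

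Collagen I, the main fibrillar collagen of scar tissue, is a trimer of the products of Col1a1 and Col1a2, and these genes stood on opposite sides of Ctrl in the Model mice. Col1a1 had 15.9 to 23.6 CPM in the Ctrl mice, 11.03 to 15.5 CPM in the Model mice and 7.63 to 41.7 CPM in the YHY mice. Each Model mouse was below each Ctrl mouse, but the difference was not called (-0.52 ± 0.34, adjusted P = 0.250). Col1a2 was at 54.4, 50.6, 48.8 and 41.6 CPM in Ctrl 1 to 4, 55.5, 97.98, 79.2 and 58.1 CPM in Model 1 to 4 and 116, 128, 77.9 and 42.7 CPM in YHY 1 to 4. All Model mice were above all Ctrl mice, and YHY 4 was the single YHY mouse within the Ctrl range. The difference in Model against Ctrl was not called (0.57 ± 0.27, adjusted P = 0.106), and in YHY against Ctrl Col1a2 was higher (0.90 ± 0.27, adjusted P = 0.0114), a call lost with library size alone (adjusted P = 0.148). With library size alone, and with only the 8 mice compared in the fit, Col1a1 was called lower in Model than Ctrl.

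Col3a1, whose product forms fibrils with collagen I, had 26.7 to 48.6 CPM in the Ctrl mice, 32.6 to 45.8 CPM in the Model mice and 14.4 to 74.03 CPM in the YHY mice and was called in no comparison. Collagen V starts fibril assembly. Col5a1, its alpha-1 chain, was at 7.42, 6.37, 5.83 and 6.94 CPM in Ctrl 1 to 4, 5.86, 11.1, 8.08 and 6.63 CPM in Model 1 to 4 and 19.5, 22.4, 10.8 and 6.51 CPM in YHY 1 to 4, and Col5a2, its alpha-2 chain, was at 4.73, 3.81, 4.53 and 5.62 CPM in Ctrl 1 to 4, 5.83, 7.43, 7.22 and 4.15 CPM in Model 1 to 4 and 13.4, 11.2, 6.85 and 2.91 CPM in YHY 1 to 4. For both genes YHY 1, 2 and 3 were above all Ctrl mice, and YHY 4 was within the Ctrl range for Col5a1 and below it for Col5a2. Both were called higher in YHY than in Ctrl (Col5a1 1.15 ± 0.31, adjusted P = 0.00595, Col5a2 0.87 ± 0.35, adjusted P = 0.0497). The Col5a1 call was lost with library size alone (adjusted P = 0.0629), and the Col5a2 call was lost under 13 of 21 alternatives, among them without any 1 of the 8 Ctrl and Model mice and without YHY 1 or YHY 2. With library size alone Col5a2 gave 0.44 (adjusted P = 0.341) in YHY against Ctrl. Col5a1 gave 0.90 ± 0.31, adjusted P = 0.0687, in YHY against Model. Across the class, the median difference was 0.39 in Model against Ctrl (-0.08 with library size alone, beside -0.39 over all genes). It was 0.46 in YHY against Model with 0 of 8 called in either direction by edgeR (2 higher and 0 lower at an unadjusted P under 0.05). In YHY against Ctrl it was 0.89 with 5 of 8 higher (0.45 and 2 with library size alone). By DESeq2, 1 of the 8, Col5a1, was called higher in YHY than Model.

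Elastic fibres have a core of elastin on a scaffold of fibrillin. Eln, the elastin gene, was at 8.17, 4.71, 6.71 and 6.58 CPM in Ctrl 1 to 4, 17.5, 15.4, 16.8 and 19.9 CPM in Model 1 to 4 and 20.3, 28.2, 20.6 and 16.2 CPM in YHY 1 to 4. All 8 db/db mice were above all 4 Ctrl mice, and the Model and YHY mice overlapped. Eln rose in Model against Ctrl (1.41 ± 0.20, adjusted P = 6.87e-05, 2.65-fold), a call kept under all 21 alternatives, and was higher in YHY than in Ctrl (1.70 ± 0.20, adjusted P = 5.16e-06), with no call in YHY against Model (0.29 ± 0.19, adjusted P = 0.332). Fbn1, fibrillin-1, was at 9.51, 10.95, 7.37 and 8.70 CPM in Ctrl 1 to 4, 11.1, 23.3, 19.1 and 11.1 CPM in Model 1 to 4 and 30.8, 27.4, 12.9 and 7.71 CPM in YHY 1 to 4. All Model mice were above all Ctrl mice by a narrow margin for Model 1 and Model 4, and YHY 4 was within the Ctrl range. Fbn1 was not called in Model against Ctrl (0.82 ± 0.36, adjusted P = 0.0806), and was higher in YHY than in Ctrl (1.11 ± 0.36, adjusted P = 0.0166), a call lost with library size alone and without Ctrl 3, YHY 1 or YHY 2. Fbln5, a fibulin that helps elastin deposit on microfibrils, had 77.9 to 169 CPM in the Ctrl mice, 145 to 289 CPM in the Model mice and 73.2 to 226 CPM in the YHY mice. By edgeR it was called in no comparison (0.86 ± 0.35, adjusted P = 0.0664, in Model against Ctrl), and DESeq2 called it higher in Model than Ctrl.

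Bgn encodes biglycan, a small leucine-rich proteoglycan. It was at 115, 129.6, 113 and 120.4 CPM in Ctrl 1 to 4, 116, 183, 197 and 104 CPM in Model 1 to 4 and 271, 250.1, 162 and 93.1 CPM in YHY 1 to 4. YHY 1 and YHY 2 were above every other mouse, YHY 4 was below every other mouse, and Model 2 and 3 stood above the Ctrl mice. Bgn was called higher in YHY than in Ctrl (0.70 ± 0.28, adjusted P = 0.0470), a call lost under 12 of 21 alternatives, including without any 1 of the Ctrl mice, without Model 1, 2 or 3 and without YHY 1 or YHY 2. With library size alone this difference was 0.28 (adjusted P = 0.435). Decorin (Dcn) and lumican (Lum), of the same protein family, were called in no comparison. Dcn had 27.00 to 50.8 CPM in the Ctrl mice, 32.3 to 64.5 CPM in the Model mice and 18.6 to 47.6 CPM in the YHY mice, and Lum had 1.05 to 3.58 CPM in the Ctrl mice, 1.14 to 2.05 CPM in the Model mice and 0.542 to 3.51 CPM in the YHY mice.

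Fn1 encodes fibronectin, an adhesive glycoprotein bound by integrins. It was at 30.3, 45.7, 28.9 and 19.6 CPM in Ctrl 1 to 4, 32.6, 55.8, 59.01 and 24.2 CPM in Model 1 to 4 and 87.3, 134, 38.2 and 18.3 CPM in YHY 1 to 4. YHY 1 and YHY 2 were the highest mice and YHY 4 the lowest of the 12. Fn1 was called higher in YHY than in Ctrl (1.16 ± 0.46, adjusted P = 0.0456), although the groups overlapped, and the call was lost under 11 of 21 alternatives, among them DESeq2 and leaving out Ctrl 1, Ctrl 3, Ctrl 4, YHY 1, YHY 2, or any of Model 1 to 3. With library size alone this difference was 0.70 (adjusted P = 0.156). Model against Ctrl gave 0.46 ± 0.45, adjusted P = 0.447.

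Sparc, a collagen-binding matricellular protein, was the most abundant member of its class at 27.2 FPKM. It was at 104, 92.4, 107 and 89.5 CPM in Ctrl 1 to 4, 128, 119, 135 and 108 CPM in Model 1 to 4 and 104, 106, 69.2 and 77.3 CPM in YHY 1 to 4. With TMM all Model mice were above all Ctrl mice and all YHY mice, while with library size alone Model overlapped both. Neither difference was called by edgeR (0.32 ± 0.16, adjusted P = 0.125, in Model against Ctrl, and -0.46 ± 0.16, adjusted P = 0.0654, in YHY against Model), and DESeq2 called Sparc lower in YHY than Model. The other matricellular members were called in no comparison. Thbs1, thrombospondin-1, had 34.1 to 46.9 CPM in the Ctrl mice, 29.5 to 33.7 CPM in the Model mice and 23.00 to 62.7 CPM in the YHY mice, and Model mice lay below all Ctrl mice without a call (-0.42 ± 0.23, adjusted P = 0.166). Tnc, tenascin-C, had 3.74 to 14.7 CPM in the Ctrl mice, 8.18 to 13.6 CPM in the Model mice and 4.03 to 27.4 CPM in the YHY mice, with Ctrl 2 and YHY 4 at the low end. Postn, periostin, had 1.50 to 3.82 CPM in the Ctrl mice, 1.14 to 3.86 CPM in the Model mice and 0.814 to 5.27 CPM in the YHY mice. The class had a median difference of 0.32 in Model against Ctrl (-0.14 with library size alone) with 1 of 11 higher, and 0.34 in YHY against Ctrl (-0.09 with library size alone) with 4 of 11 higher. Over all genes the medians with library size alone were -0.39 and -0.33, in that order. The class median in YHY against Model was 0.29, with 0 of 11 called by edgeR in either direction, 0 higher and 1 lower at an unadjusted P under 0.05, and 1 lower by DESeq2.

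Lysyl oxidases cross-link collagen and elastin, and all 3 of those among the members rose in Model against Ctrl. Lox was at 5.21, 4.37, 4.33 and 5.42 CPM in Ctrl 1 to 4, 8.08, 10.9, 7.49 and 5.73 CPM in Model 1 to 4 and 21.6, 10.01, 16.3 and 8.33 CPM in YHY 1 to 4. Each Model mouse was above each Ctrl mouse, Model 4 by a narrow margin, and each YHY mouse was above each Ctrl mouse as well. Lox passed the threshold in Model against Ctrl (0.73 ± 0.28, adjusted P = 0.0474), but the call was lost under 11 of 21 alternatives, among them library size alone, the set of 9 mice, the mouse number as a block, and leaving out any 1 Ctrl mouse, Model 1, Model 2, Model 3 or YHY 3 (adjusted P up to 0.527). It was higher in YHY than in Ctrl (1.54 ± 0.28, adjusted P = 0.000271), with 0.81 ± 0.27, adjusted P = 0.0623, in YHY against Model, which DESeq2 called. Loxl1, which acts on elastic fibres, was at 17.1, 20.2, 12.3 and 12.4 CPM in Ctrl 1 to 4, 20.5, 33.8, 31.2 and 26.2 CPM in Model 1 to 4 and 22.6, 34.2, 18.1 and 18.5 CPM in YHY 1 to 4. All Model mice were above all Ctrl mice, and YHY 2 was the highest of the 12. Loxl1 rose in Model against Ctrl (0.85 ± 0.23, adjusted P = 0.00835), a call lost with library size alone (adjusted P = 0.0982). It was higher in YHY than in Ctrl (0.59 ± 0.23, adjusted P = 0.0412), lost under 10 of 21 alternatives, among them without Ctrl 1, 3 or 4, Model 1, 3 or 4, or YHY 1 or 2. With library size alone that difference was 0.14 (adjusted P = 0.580). Loxl2, which cross-links collagen IV, was at 5.96, 5.37, 7.57 and 6.51 CPM in Ctrl 1 to 4, 11.5, 14.1, 13.9 and 12.5 CPM in Model 1 to 4 and 9.46, 15.6, 8.52 and 8.06 CPM in YHY 1 to 4. The Ctrl mice were below all 8 db/db mice. Loxl2 rose in Model against Ctrl (1.03 ± 0.21, adjusted P = 0.00132), kept under all 21 alternatives, and was higher in YHY than in Ctrl (0.71 ± 0.21, adjusted P = 0.0109), a call lost with library size alone (adjusted P = 0.393), with -0.32 ± 0.21, adjusted P = 0.333, in YHY against Model.

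Membrane-bound and secreted metalloproteinases cleave collagens, and tissue inhibitors (TIMPs) block them. Mmp14, a membrane-bound collagenase, was at 7.88, 8.43, 6.61 and 6.58 CPM in Ctrl 1 to 4, 17.6, 23.4, 28.5 and 20.4 CPM in Model 1 to 4 and 16.8, 20.8, 19.1 and 14.8 CPM in YHY 1 to 4. All 8 db/db mice were above all Ctrl mice, and the YHY mice overlapped the lower Model mice. Mmp14 rose in Model against Ctrl (1.61 ± 0.18, adjusted P = 1.21e-05, 3.05-fold), a call kept under all 21 alternatives, and was higher in YHY than in Ctrl (1.28 ± 0.18, adjusted P = 2.44e-05). In YHY against Model the difference was -0.33 ± 0.17, adjusted P = 0.221. Mmp2, the gelatinase that Mmp14 activates, had 0.808 to 1.65 CPM in the Ctrl mice, 1.33 to 5.25 CPM in the Model mice and 0.542 to 3.24 CPM in the YHY mice, with Model 3 the highest mouse, and was called in no comparison.

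Timp3, an inhibitor bound to the matrix, was the most abundant member of this class at 18.2 FPKM. It was at 269, 244, 271 and 231 CPM in Ctrl 1 to 4, 75.6, 73.5, 74.5 and 36.7 CPM in Model 1 to 4 and 158, 194, 81.1 and 66.8 CPM in YHY 1 to 4. All 8 db/db mice were below all Ctrl mice, YHY 1, 2 and 3 were above every Model mouse, YHY 3 by a narrow margin, and YHY 4 lay within the Model range. Timp3 fell in Model against Ctrl (-1.96 ± 0.30, adjusted P = 0.000158), the largest fall among the members with a call, kept under all 21 alternatives. It was lower in YHY than in Ctrl (-1.02 ± 0.30, adjusted P = 0.00910). Timp3 passed the threshold as higher in YHY than in Model (0.94 ± 0.30, adjusted P = 0.0474), but the call was lost under 12 of 21 alternatives, among them library size alone, the 8 mice compared and leaving out any 1 Ctrl or Model mouse, YHY 1 or YHY 2 (adjusted P up to 0.158). The exact two-sided permutation test of CPM gave P = 0.0286 for Timp3 in Model against Ctrl and P = 0.20 in YHY against Model. Timp3 lies within Syn3 on the opposite strand, whose counts were at most 3.85% of those of Timp3.

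Timp2, an inhibitor that also takes part in Mmp2 activation, had 31.9 to 50.3 CPM in the Ctrl mice, 27.1 to 44.3 CPM in the Model mice and 27.4 to 85.1 CPM in the YHY mice and was called in no comparison. Timp1 was the least abundant of the class by FPKM, at 0.57, with 0.245 to 0.811 CPM in the Ctrl mice, 0 to 0.386 CPM in the Model mice and 0.310 to 1.30 CPM in the YHY mice. Its lowest value was a count of 0 in Model 2, which allows up to 3 of that library's 26356745 counts, for counting error alone. It was not called by edgeR (-1.79 ± 0.78, adjusted P = 0.0824, in Model against Ctrl, and 2.11 ± 0.79, adjusted P = 0.0901, in YHY against Model), and DESeq2 called it lower in Model than Ctrl and higher in YHY than Model. All 4570 bases of Timp1 lie within Syn1 on the opposite strand, whose counts were at most 10 in any mouse beside 0 to 34 for Timp1. The part of Syn1 in the Timp1 counts was not tested. The class had 4 of 8 members higher and 1 lower in Model against Ctrl with a median difference of 0.79 (2 higher, 2 lower and 0.34 with library size alone). In YHY against Model 1 was higher and 0 lower by edgeR (3 and 0 at an unadjusted P under 0.05, and by DESeq2) with a median of 0.30. There were 4 higher and 1 lower in YHY against Ctrl with a median of 0.65 (2, 1 and 0.19 with library size alone).

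**Figure D4:**
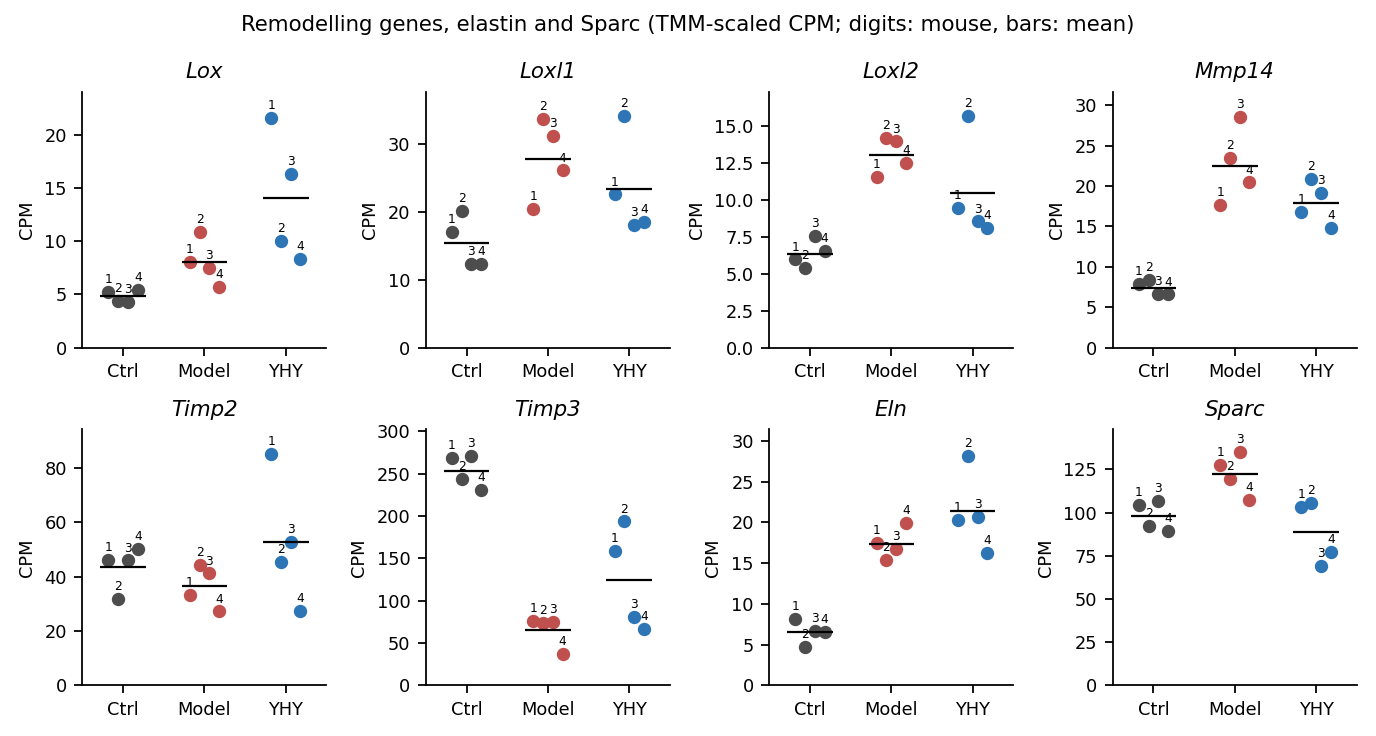
TMM-scaled CPM of 6 remodelling genes, Eln and Sparc in each mouse, with the number of the mouse above each point and a bar at the mean of 4 mice. Timp3 is at 231 or more in every Ctrl mouse and at 75.6 or less in every Model mouse, while Mmp14 is at 8.43 or less in every Ctrl mouse and at 14.8 or more in every db/db mouse.

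Ratios within a library do not depend on the scaling between libraries. They were taken on FPKM and carry no test. The ratio of Col1a1 to Col1a2 was 0.822, 0.597, 0.704 and 0.755 in Ctrl 1 to 4, 0.460, 0.30, 0.281 and 0.359 in Model 1 to 4 and 0.378, 0.616, 0.373 and 0.338 in YHY 1 to 4. All Model ratios were below all Ctrl ratios, and YHY 2 alone among YHY mice lay within the Ctrl range. The ratio of Col4a1 to Col4a2 was 1.57, 1.69, 1.57 and 1.65 in Ctrl 1 to 4, 1.28, 1.14, 1.29 and 1.32 in Model 1 to 4 and 1.13, 1.15, 1.10 and 0.998 in YHY 1 to 4. Here the Ctrl ratios were above all others, YHY 1, 3 and 4 were below all Model mice, and YHY 2 was below all of them but Model 2. The mean of Col4a3, Col4a4 and Col4a5 over the mean of Col4a1 and Col4a2 had 0.349 to 0.517 in the Ctrl mice, 0.260 to 0.428 in the Model mice and 0.209 to 0.646 in the YHY mice. The 3 groups overlapped in this ratio, and YHY held both the lowest mouse, YHY 2, and the highest, YHY 4.

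Both laminin ratios had a smaller SD in the Ctrl group than in the Model or the YHY group. Lamb2 to Lamb1 was 0.675, 0.633, 0.591 and 0.669 in Ctrl 1 to 4, 0.736, 0.814, 0.604 and 0.644 in Model 1 to 4 and 0.929, 0.926, 0.760 and 0.927 in YHY 1 to 4. YHY 1, 2 and 4 were above all other mice, while YHY 3 lay within the Model range. Lama5 to Lama4 had 14.9 to 23.4 in the Ctrl mice, 32.99 to 72.8 in the Model mice and 50.6 to 141 in the YHY mice, and all db/db mice were above all Ctrl mice. A further 2 ratios were chosen after the values were seen. Col4a3 to Col4a4 was 1.01, 0.809, 0.951 and 0.838 in Ctrl 1 to 4, 0.734, 0.581, 0.533 and 0.462 in Model 1 to 4 and 0.671, 0.633, 0.685 and 0.836 in YHY 1 to 4, so that all Model mice were below all Ctrl mice and the YHY mice reached the lower edge of Ctrl through YHY 4 alone. Timp3 to Mmp14 had 21.2 to 29.98 in the Ctrl mice, 1.31 to 3.14 in the Model mice and 3.11 to 6.88 in the YHY mice, with the Ctrl mice far above all others.

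**Figure D5:**
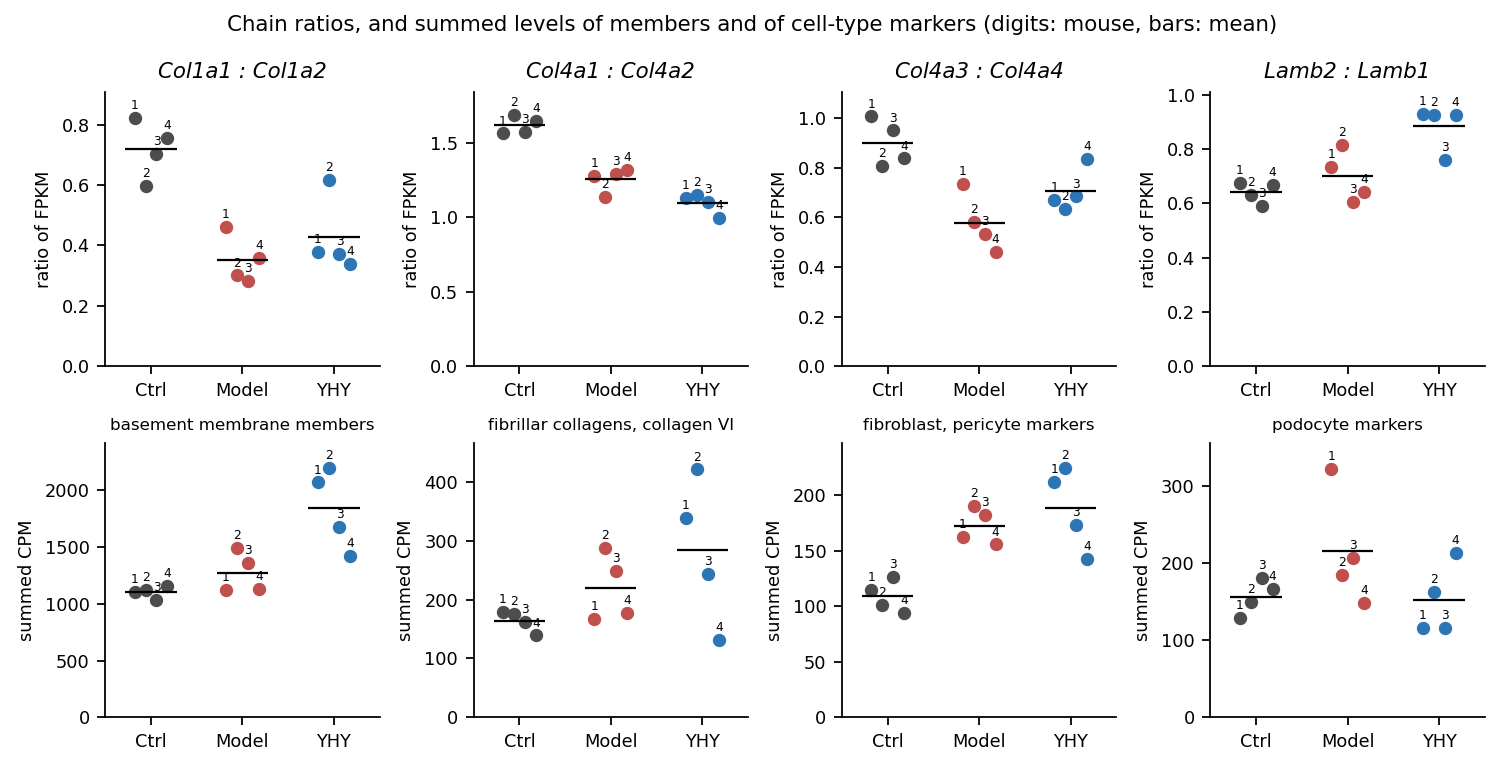
Top, ratios of FPKM between chains of collagen I, collagen IV and laminin in each mouse, and bottom, summed TMM-scaled CPM of 2 classes of members and of 2 marker lists, with the number of the mouse above each point and a bar at the mean of 4 mice. The ratio of Col4a1 to Col4a2 is at 1.57 or more in the Ctrl mice and at 1.32 or less in all db/db mice. With TMM, fibroblast and pericyte markers sum to 126 CPM or less in Ctrl mice and to 143 CPM or more in db/db mice. With library size alone these sums overlap.

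Other genes of the matrix were followed as lists. Of 12 other collagens, 9 were tested, and 5 were higher and 0 lower in Model than Ctrl by edgeR (5 and 0 at an unadjusted P under 0.05, and by DESeq2, 3 and 0 with library size alone). Col27a1, a fibrillar collagen known from cartilage and the most abundant of the list by CPM, gave 1.89 ± 0.33, adjusted P = 0.000418. Col7a1, the collagen of anchoring fibrils, gave 1.69 ± 0.34, adjusted P = 0.00111, and Col12a1, a fibril-associated collagen, 0.88 ± 0.21, adjusted P = 0.00370. Col27a1 and Col7a1 were also the 2 of 9 called in YHY against Model, both higher (1.95 ± 0.33, adjusted P = 0.00219, and 1.01 ± 0.32, adjusted P = 0.0496). Col27a1 was at 29.8, 44.8, 24.8 and 16.8 CPM in Ctrl 1 to 4, 64.4, 152, 105 and 109.8 CPM in Model 1 to 4 and 328, 654, 435 and 249.6 CPM in YHY 1 to 4. The groups of this gene did not overlap, with Model above Ctrl and YHY above Model. In YHY against Ctrl, 4 of 9 were higher, with Col27a1 at 3.84 ± 0.36, adjusted P = 9.50e-07, Col7a1 at 2.70 ± 0.34, adjusted P = 1.20e-05 and Col12a1 at 1.42 ± 0.21, adjusted P = 4.55e-05.

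Among 15 other basement membrane genes, 1 rose and 4 fell in Model against Ctrl, with a median difference of -0.44 (0, 8 and -0.89 with library size alone). Tinag, an antigen of the tubular basement membrane, fell (-1.28 ± 0.36, adjusted P = 0.0113), as did Frem2, of the Fraser complex (-0.91 ± 0.27, adjusted P = 0.0151), and Lama1, the laminin alpha-1 chain, rose (0.61 ± 0.19, adjusted P = 0.0181). None of the 15 was called in YHY against Model by edgeR (0, with 2 higher and 2 lower at an unadjusted P under 0.05, and 1 higher and 1 lower by DESeq2). In YHY against Ctrl 2 were higher and 3 lower, and Tinag (-2.24 ± 0.38, adjusted P = 0.000143), Frem1 (0.98 ± 0.26, adjusted P = 0.00471) and Fras1 (-0.63 ± 0.17, adjusted P = 0.00571) had the smallest adjusted P.

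Of 28 other matrix glycoproteins and proteoglycans tested out of 29, 8 were higher and 1 lower in Model than Ctrl, which turned to 2 higher and 5 lower with library size alone. Ecm1, extracellular matrix protein 1, rose (1.54 ± 0.21, adjusted P = 6.92e-05), as did Thbs3, a thrombospondin (2.40 ± 0.43, adjusted P = 0.000461), and Ltbp3, which binds latent TGF-beta (0.81 ± 0.17, adjusted P = 0.00154). Ccn1, a matricellular protein, was the 1 gene of the list called in YHY against Model by edgeR, and was lower (-1.14 ± 0.31, adjusted P = 0.0262). DESeq2 called 1 higher and 1 lower. Against Ctrl, YHY mice had 8 higher and 3 lower, led by Ecm1 (1.81 ± 0.22, adjusted P = 7.00e-06), Ltbp3 (1.30 ± 0.17, adjusted P = 1.56e-05) and Vwa1, lower (-1.81 ± 0.27, adjusted P = 5.29e-05).

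Enzymes and chaperones modify and export collagen. Of 20 such genes, 3 rose and 9 fell in Model against Ctrl, compared with 1 and 10 with library size alone, and their summed level was 1188, 1163, 1196 and 1161 CPM in Ctrl 1 to 4, 798, 667, 670.4 and 647 CPM in Model 1 to 4 and 707, 700.1, 665 and 684 CPM in YHY 1 to 4. Every Ctrl mouse was above every db/db mouse. Crtap, a partner in prolyl 3-hydroxylation, fell (-1.12 ± 0.14, adjusted P = 2.44e-05), as did P4ha1, a catalytic subunit of prolyl 4-hydroxylase (-1.02 ± 0.13, adjusted P = 3.18e-05), and P3h2, a prolyl 3-hydroxylase acting on collagen IV (-1.54 ± 0.20, adjusted P = 3.40e-05). Between YHY and Model, 4 were higher in YHY and 1 lower, and 0 were called with library size alone. Mia3, needed for collagen to leave the endoplasmic reticulum, was higher (0.62 ± 0.15, adjusted P = 0.0142), P3h2 was higher (0.74 ± 0.19, adjusted P = 0.0208), and Crtap was lower (-0.50 ± 0.14, adjusted P = 0.0255). In YHY against Ctrl 5 were higher and 9 lower, with Crtap (-1.62 ± 0.14, adjusted P = 4.49e-07), P4hb, protein disulfide isomerase (-1.32 ± 0.16, adjusted P = 8.57e-06), and Serpinh1, the collagen chaperone HSP47 (-1.14 ± 0.15, adjusted P = 1.33e-05), all lower.

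Other matrix proteases and inhibitors, 19 of 23 tested, had 3 higher and 5 lower in Model than Ctrl (2 and 7 with library size alone). The meprin genes Mep1a (-2.34 ± 0.21, adjusted P = 2.24e-06) and Mep1b (-2.25 ± 0.22, adjusted P = 4.88e-06), metalloproteases of the proximal tubule brush border, fell, and Adamts5, which cleaves proteoglycans, rose (1.46 ± 0.29, adjusted P = 0.00117). In YHY against Model Mep1a was lower (-0.94 ± 0.20, adjusted P = 0.00758) and Timp4, a further inhibitor, higher (1.71 ± 0.53, adjusted P = 0.0443). There DESeq2 called 1 higher and 2 lower, and library size alone gave 0 and 2. Mep1a (-3.27 ± 0.22, adjusted P = 4.36e-08) and Mep1b (-2.52 ± 0.22, adjusted P = 5.33e-07) were lower and Ctsk, cathepsin K, higher (1.80 ± 0.33, adjusted P = 0.000303) in YHY against Ctrl, where 5 of 19 were higher and 6 lower.

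Matrix receptors, all 21 tested, had 6 higher and 5 lower in Model than Ctrl, against 1 and 11 with library size alone. Itgb8, an integrin beta chain, fell (-1.60 ± 0.27, adjusted P = 0.000290), Itga5, of the fibronectin receptor, rose (1.17 ± 0.21, adjusted P = 0.000404), and Itgb6, an epithelial integrin beta chain, fell (-0.90 ± 0.16, adjusted P = 0.000530). Itgb6 (-0.84 ± 0.16, adjusted P = 0.00469) and the syndecan Sdc4 (-0.64 ± 0.17, adjusted P = 0.0195) were the 2 receptors called in YHY against Model by edgeR, both lower. DESeq2 called 1 higher and 3 lower there, and library size alone gave 0. In YHY against Ctrl 3 were higher and 7 lower, with Itgb6 (-1.74 ± 0.17, adjusted P = 1.16e-06) and Itgb8 (-2.25 ± 0.27, adjusted P = 8.31e-06) lower and Itga5 higher (1.62 ± 0.21, adjusted P = 1.30e-05).

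Matrix genes are expressed by only some kidney cells, and in whole tissue fewer cells of a type and less RNA per cell cannot be told apart. Markers of kidney tubules were present in every mouse, with Slc34a1, the proximal tubule phosphate transporter, at a mean of 2007 CPM and Slc12a1, of the thick ascending limb, at a mean of 856 CPM. No marker of the 7 cell-type lists was at 0 in all mice. Fibroblast and pericyte markers summed to 115, 101, 126 and 93.7 CPM in Ctrl 1 to 4, 162, 190.3, 182 and 156 CPM in Model 1 to 4 and 212, 224, 173 and 143 CPM in YHY 1 to 4. With TMM all db/db mice were above all Ctrl mice, and YHY 4 was the lowest db/db mouse. With library size alone the sums of db/db and Ctrl mice overlapped. Pdgfra, a receptor of fibroblasts, was the most abundant of the 8 markers by CPM, and Tcf21 by FPKM. Of the 8, 4 were higher in Model than Ctrl and 4 in YHY than Ctrl (1 with library size alone in each case), and 0 were called in YHY against Model by edgeR (1 higher and 1 lower at an unadjusted P under 0.05, 1 lower by DESeq2).

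Podocytes make the alpha-3, alpha-4 and alpha-5 chains of collagen IV. Their 8 markers, of which Podxl was the most abundant by CPM and Cdkn1c by FPKM, summed to 129, 150.2, 181 and 167 CPM in Ctrl 1 to 4, 323, 184, 208 and 149 CPM in Model 1 to 4 and 116, 163, 117 and 214 CPM in YHY 1 to 4. Model 1 was the highest mouse, and the groups overlapped. In Model against Ctrl 4 of 8 were higher and 0 lower (2 and 1 with library size alone), in YHY against Model 0 were called by edgeR (0 higher and 4 lower at an unadjusted P under 0.05, 1 lower by DESeq2). Beside Ctrl, 4 were higher and 1 lower in YHY (2 and 2 with library size alone).

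Mesangial and smooth muscle markers, with Ren1 the most abundant, summed to 215, 232, 219 and 269.7 CPM in Ctrl 1 to 4, 269.8, 239, 226 and 189 CPM in Model 1 to 4 and 201, 237, 188 and 205 CPM in YHY 1 to 4, and the groups overlapped. In Model against Ctrl 3 of 8 were higher (1 higher and 2 lower with library size alone), in YHY against Model 1 was higher (0 with library size alone), and in YHY against Ctrl 2 were higher and 1 lower. Endothelial markers, with Plvap the most abundant, summed to 339.7, 256, 357 and 373 CPM in Ctrl 1 to 4, 436, 343, 371 and 323 CPM in Model 1 to 4 and 476, 303, 374 and 308 CPM in YHY 1 to 4. These groups overlapped as well, with 2 of 8 higher in Model than Ctrl and 2 of 8 in YHY than Ctrl, none of which was called higher with library size alone. There were 0 called in YHY against Model by edgeR (0 higher and 1 lower at an unadjusted P under 0.05 and by DESeq2).

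Proximal tubule markers summed to 4967, 6212, 5205 and 3929 CPM in Ctrl 1 to 4, 3765, 3628, 4042 and 3113 CPM in Model 1 to 4 and 1521, 3323, 2061 and 4207 CPM in YHY 1 to 4. YHY 4 was the highest YHY mouse by this sum and YHY 1 the lowest mouse of all. Of the 8, 3 were lower in Model than Ctrl (4 by DESeq2), 2 lower in YHY than Model (4 at an unadjusted P under 0.05, and by DESeq2), and 5 lower and 1 higher in YHY than Ctrl. The 1 higher was Slc5a12, at 223 CPM in YHY 4 and at 24.7 CPM or less in the other YHY mice, with 3.69 to 25.4 CPM in the Ctrl mice. Markers of the loop, distal tubule and collecting duct summed to 2846, 1888, 2822 and 3582 CPM in Ctrl 1 to 4, 2134, 1790.0, 1679.6 and 2011 CPM in Model 1 to 4 and 2220.1, 1726, 2637 and 1697 CPM in YHY 1 to 4, with 1 of 8 higher and 2 lower in Model than Ctrl, 1 lower in YHY than Model (1 higher and 2 lower by DESeq2), and 1 higher and 3 lower in YHY than Ctrl. Macrophage and other leukocyte markers, 7 of 9 tested, with Csf1r the most abundant by CPM, C1qa by FPKM, and Cd3e and Ms4a1 below the filter, summed to 119, 81.6, 120.5 and 104 CPM in Ctrl 1 to 4, 66.3, 92.2, 84.5 and 119 CPM in Model 1 to 4 and 99.02, 125, 110.1 and 66.2 CPM in YHY 1 to 4. In Model against Ctrl 1 of 7 was higher and 2 lower, in YHY against Model 0 were called by edgeR (3 higher and 0 lower at an unadjusted P under 0.05, 0 by DESeq2), and in YHY against Ctrl 2 were higher and 1 lower. The part of these cell types in the differences of the members was not tested.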

How the data were processed

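Kidney mRNA of 12 mice, 4 in each group, was sequenced, and the deposited table gives unscaled counts for each gene along with its length. The submitters' processing notes list FastQC 0.11.9, Trimmomatic 0.39, HISAT2 2.2.1, SAMtools 1.12, featureCounts 2.0.1 and DESeq2 1.34.0 and the build GRCm39, without saying which step each served. Whether strand was used in counting is not stated. The authors' comparison tables hold normalised values of single mice, group means, fold changes and P values. By their column names each table has 3 mice a group, where the study has 4. In the YHY table the names above the Model columns belong in part to YHY mice. These tables were not used, nor were the pathway tables.

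Members and marker lists were chosen by symbol with earlier results of these data known. Of the 57490 genes, 480 have no symbol. Total counts were 33276634, 29632718, 33236670 and 32677732 in Ctrl 1 to 4, 29784346, 26356745, 26095074 and 24415658 in Model 1 to 4, and 25310437, 25149764, 26187322 and 29698342 in YHY 1 to 4. At this depth the 95% Wilson interval of each mouse's mitochondrial share was under 0.04 points wide, for counting error only.

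Counts of all 12 mice were fitted together in edgeR 4.0.16 (R 4.3.3), with filterByExpr, TMM scaling and the two-sided quasi-likelihood test (glmQLFit, glmQLFTest), for the 3 comparisons of groups. P was adjusted by Benjamini-Hochberg over the 17431 genes tested, and under 0.05 counted as a call. For single genes an exact two-sided permutation test of TMM-scaled CPM over the 8 mice compared was added (smallest P 0.0286). The fit was also run on simulated data, and no result given here rests on that run. FPKM used the deposited lengths. All 44 members are accounted for. Values in every mouse are given for members called in any comparison and for the most abundant of each class by mean FPKM, and of other matrix lists up to 3 genes with the smallest adjusted P in each comparison among those called are named. Alternatives were DESeq2 1.42.0, upper-quartile scaling, library size alone, mitochondrial transcripts left out, leaving the filter off, asking 10 counts or more of each sample, the 8 mice compared, a set of 9 mice (Ctrl 1, 3 and 4, Model 2, 3 and 4, YHY 1, 2 and 3, after the authors' comparison tables), a replicate block (the number of the mouse as a term), leaving out 1 mouse at a time, and the limits of the study. After group means were removed, r between mice with the same number in different groups ran from -0.208 to 0.170 over 12 pairs, and the numbers were taken not to pair mice. Promoter motifs were searched with Python 3.11.15, and figures drawn with matplotlib 3.10.9.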

Additional observations from a re-analysis of the deposited data

Results flagged for a closer look

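Within each group of 4 mice, the lowest and the highest mouse were compared with the others for the 44 members, 7 chain ratios and 12 summed levels, in 189 groups of 4 in all. In 14 of these groups a mouse lay apart from the other 3, and chance flags about 1 in 20. Among basement membrane genes, Lamb1, the laminin beta-1 chain, was at 95.5 CPM in YHY 4 and between 140.5 and 141 CPM in the other YHY mice, Col18a1 at 106.7 CPM in Model 4 and between 139.97 and 145 CPM in the other Model mice, and Lama4 at 6.34 CPM in Model 2 and between 2.74 and 3.28 CPM in the others of its group. Col6a3 was at 10.6 CPM in Ctrl 4 and between 16.6 and 17.4 CPM in the other Ctrl mice. Dcn had a mouse apart in 2 groups, Model 2 at 64.5 CPM with the other Model mice between 32.3 and 37.3 CPM, and YHY 4 at 18.6 CPM with the other YHY mice between 43.1 and 47.6 CPM. Ctrl 2 was low for Tnc, at 3.74 CPM with the other Ctrl mice between 13.6 and 14.7 CPM, and for Thbs1, at 34.1 CPM with the others between 45.6 and 46.9 CPM. For Mmp2 this was so in all 3 groups, where Ctrl 2 was at 1.65 CPM and the other Ctrl mice between 0.808 and 0.889 CPM, Model 3 at 5.25 CPM and the other Model mice between 1.33 and 1.43 CPM, and YHY 4 at 0.542 CPM and the other YHY mice between 2.99 and 3.24 CPM. Timp3 was at 36.7 CPM in Model 4 and between 73.5 and 75.6 CPM in the other Model mice. The ratio of Col1a1 to Col1a2 was 0.616 in YHY 2 and between 0.338 and 0.378 in the other YHY mice. That of Lamb2 to Lamb1 was 0.760 in YHY 3 and between 0.926 and 0.929 in the other YHY mice.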

How the results depend on the processing

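No call in Model against Ctrl or YHY against Model turned its direction under any alternative. In YHY against Ctrl 1 of 23 calls did, Col4a4, which was -0.03 with library size alone (adjusted P = 0.916). Calls were kept in 191 of 210 values for the 10 members called in Model against Ctrl and in 117 of 147 for the 7 called in YHY against Model. The count of members higher in Model than Ctrl, 8, was 4 with library size alone and 13 in the set of 9 mice (8.87% and 18.9% of all genes, beside 19.6%), and ran from 6 (without Ctrl 1, 3 or 4 or Model 2 or 3, with 14.1% to 15.7% of all genes) to 11 (without YHY 4, 20.3%). The count lower in Model than Ctrl, 2, was 4 with DESeq2 and by the limits of the study (20.1% and 22.4% of all genes, beside 18.5%), 7 with library size alone (32.5%) and 5 with only the 8 mice compared (24.2%). With 1 mouse left out it ran from 2 to 3, with 14.4% to 20.9% of all genes. The median of the members in Model against Ctrl, 0.30, was -0.15 with library size alone and ran from 0.16 (without Model 2) to 0.34 (without Model 4). The count higher in YHY than Model, 7, was 11 with DESeq2, with no filter and in the 9 mice (8.23%, 3.55% and 4.94% of all genes, beside 5.63%), 3 with library size alone (2.82%) and 14 by the limits of the study (13.9%). With 1 mouse left out it ran from 3 (without Model 3, 2.32%) to 14 (without YHY 4, 5.89%). The count lower in YHY than Model, 0, was 1 with DESeq2 and by the limits of the study (9.68% and 14.7%, beside 7.62%). With 1 mouse left out it ran from 0 to 2 (without YHY 2, 5.91%). The median in YHY against Model, 0.43, ran from 0.26 (without YHY 1) to 0.62 (without YHY 4), and that in YHY against Ctrl, 0.64, was 0.19 with library size alone. The count higher in YHY than Ctrl, 22, was 10 with library size alone (13.6% of all genes, beside 26.1%) and ran from 14 (without Ctrl 3, 20.9%) to 27 (without YHY 4, 25.3%). The count lower, 1, was 2 with library size alone (34.3%, beside 24.2%) and 1 with each mouse left out. Leaving out mitochondrial transcripts lost no member call. With the replicate block the counts were 8, 3, 6, 0, 22 and 1 in the same order, and the medians 0.27 and 0.38. Of all genes, 18.4%, 17.7%, 4.55%, 6.47%, 24.4% and 23.9% were called with the block, in that order. The cause of these shifts was not tested.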
